A study of Mus musculus with 25 samples.

Results

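Atf3, Jun, Sox11, Smad1, Stat3 and Klf6 are 6 transcription factor genes that are known as the early regulators of the response of sensory neurons to nerve injury. They were taken from the array by gene symbol, with 1 probe set per gene, which makes 6 of 30142 named genes. All 6 passed the filter on dim probe sets and were among the 20260 genes tested. Values are deposited log2 intensities, and differences are given on that scale. Levels of different probe sets cannot be set against each other.

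The study used 25 microarrays of RNA from the L3 to L5 dorsal root ganglia of male C57BL/6 mice, where the sensory neurons of the hind limb have their cell bodies. Mice had destabilization of the medial meniscus (DMM), an operation that leads to knee osteoarthritis, or sham surgery in the right knee when 10 weeks old, or were left untreated (naive), and ganglia were taken 4, 8 or 16 weeks later, at 14, 18 or 26 weeks of age. There were 3 arrays of DMM, sham and naive mice at each time, except for sham mice at 8 weeks, where 1 array was left after the submitters' quality control. The labels do not say how many mice or ganglia went into an array, nor whether both sides were pooled. Arrays are treated as replicates, and p-values measure the spread between arrays, which may be partly technical. The labels name no batch, so that time, age and any processing done time by time cannot be told apart.

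When the axon of a sensory neuron is cut or crushed, signals travel back to the cell body and switch on a set of transcription factors that move the neuron from transmission to regrowth. Atf3 and Jun are bZIP proteins that bind DNA as dimers, Jun being the target of the JNK kinases, and Atf3 is almost silent in intact neurons, which is why it is widely used as a marker of axon damage. Sox11 is an HMG-box factor of the developing nervous system that returns after injury, Smad1 and Stat3 carry signals of bone morphogenetic proteins and of gp130 cytokines to the nucleus, and Klf6 is a zinc-finger factor linked to axon growth. Smad1 and Stat3 are regulated to a large degree by phosphorylation, which an RNA array does not measure.

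The tissue was checked by marker genes. Of 18 sensory neuron markers 16 were on the array under a single symbol, and all 16 were tested. The filter level (4.52) was below the medians of the negative controls (5.06 to 5.35), so passing it does not show that a marker is expressed. In naive ganglia the mean of the sensory neuron markers, given below with the other cell types, was far above these controls. Of 10 markers of spinal cord and oligodendrocytes 4 were tested, and Mog, Mobp, Opalin, Mnx1, Chat and Slc6a5 lay below the filter. Arrays of a group correlated at 0.993 to 0.998 over the genes tested.

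The promoters of Atf3, Jun and Sox11 are shown because the RNA of these 3 genes moved together over the arrays, as described next. Each is the 250 bases before the start annotated by RefSeq on the mouse build GRCm38.p6, all on the minus strand, and written 5′ to 3′. Atf3 lies at chr1:191183334-191183583, Jun at chr4:95052223-95052472 and Sox11 at chr12:27342719-27342968. Capitals mark the match to a CRE, the element bound by ATF, CREB and AP-1 family dimers, with 1 base free.
Atf3: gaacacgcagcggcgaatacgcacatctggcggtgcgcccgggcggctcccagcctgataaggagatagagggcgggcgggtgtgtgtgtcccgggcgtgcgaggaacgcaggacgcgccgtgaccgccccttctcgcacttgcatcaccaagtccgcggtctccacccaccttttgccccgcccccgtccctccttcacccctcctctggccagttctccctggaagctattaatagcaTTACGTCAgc
Jun: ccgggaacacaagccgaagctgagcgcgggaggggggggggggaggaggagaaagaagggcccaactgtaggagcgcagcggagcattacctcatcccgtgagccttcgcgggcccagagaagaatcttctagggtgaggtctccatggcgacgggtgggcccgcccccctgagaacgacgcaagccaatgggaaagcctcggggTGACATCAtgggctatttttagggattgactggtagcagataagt
Sox11: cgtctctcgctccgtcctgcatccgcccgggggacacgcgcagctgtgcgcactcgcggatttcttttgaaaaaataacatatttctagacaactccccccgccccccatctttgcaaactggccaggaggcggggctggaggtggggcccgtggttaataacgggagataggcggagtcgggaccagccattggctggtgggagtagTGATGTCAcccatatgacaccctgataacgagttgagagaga

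No promoter of the 6 genes held the full CRE, TGACGTCA, on either strand, which 1.55% of 32851 mouse promoters of this table held in the same 250 bases. A form with 1 free base was found in 4 of the 6. The form TNACGTCA matched as TTACGTCA at position -10 of Atf3, counted from the annotated start, and is present in 2.52% of all promoters. The form TGACNTCA matched as TGACATCA at position -45 of Jun and at position -119 of Klf6, and on the other strand as TGATGTCA at position -42 of Sox11, and 7.49% of all promoters hold it. These 2 forms were chosen after the promoters had been read, and the shares are a description only. The AP-1 motif TGANTCA, the STAT motif TTCNNNGAA and the SOX motif AACAAAG were in none of the 6 windows, against 6.75%, 7.02% and 5.03% of all promoters. The GC box GGGCGG was in all 6, against 32.7% of all promoters, and CCAAT was in each but Atf3, against 33.9%. A match shows only that the letters are there.

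Atf3, Sox11 and Jun were the members that varied. Within groups, Atf3 had a residual SD of 0.646 on the log2 scale, more than 99.6% of the genes tested, Sox11 had 0.385 (98.5%) and Jun 0.317 (96.5%). Klf6 had 0.110, Stat3 0.10 and Smad1 0.0767, at percentiles 42.2, 35.3 and 16.1. The median gene had 0.121. Thus the first 3 genes differed widely between arrays of the same treatment and time, and the other 3 were about as steady as the median gene or steadier.

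**Figure D1:**
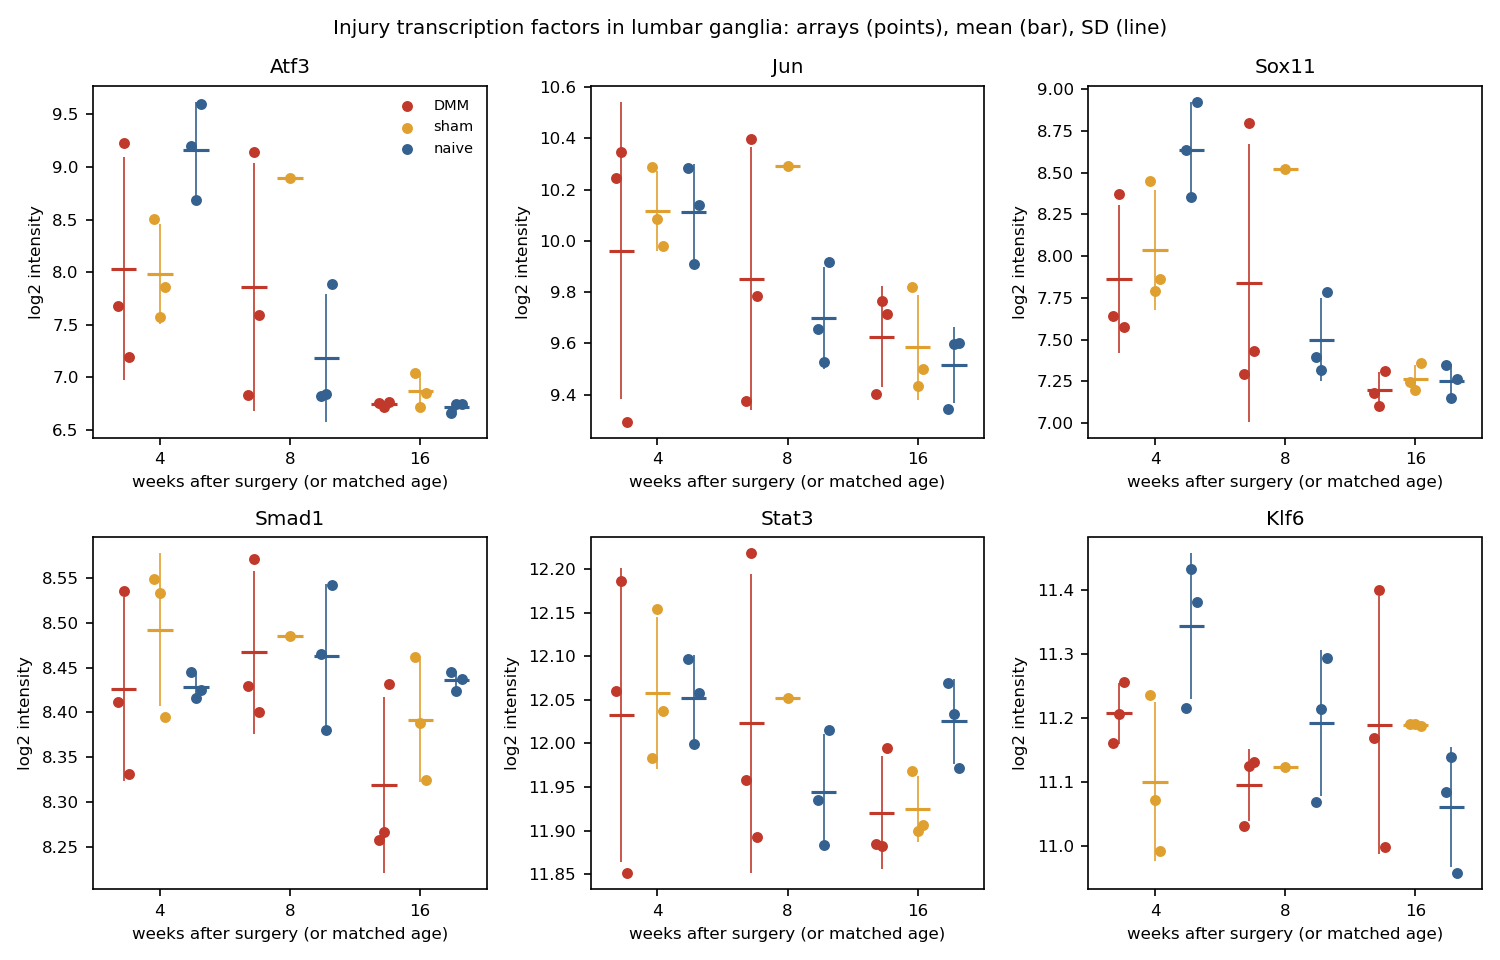
Log2 intensity of the 6 members on each of the 25 arrays (points) with the group mean (bar) and SD (line), by weeks after surgery and by treatment. Atf3, Jun and Sox11 spread widely at 4 and 8 weeks, and at 16 weeks Atf3 lies between 6.67 and 7.04 in all groups.

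Atf3, the damage marker, was highest in the youngest untreated mice. At 4 weeks it measured 7.68, 9.23 and 7.19 in DMM ganglia, 8.51, 7.58 and 7.86 in sham ganglia, and 9.20, 8.69 and 9.60 in naive ganglia. At 8 weeks it measured 6.83, 9.14 and 7.59 in DMM ganglia, 8.90 on the lone sham array, and 6.83, 6.85 and 7.89 in naive ganglia. At 16 weeks it measured 6.76, 6.72 and 6.76 in DMM ganglia, 7.04, 6.72 and 6.85 in sham ganglia, and 6.67, 6.74 and 6.74 in naive ganglia. At 4 weeks all 3 naive arrays, 1 DMM array and 1 sham array stood at or above 8.51, at 8 weeks 1 DMM array and the sham array did, and at 16 weeks none. The array at 9.23 and the array at 9.14 were replicates 2 of the DMM groups at 4 and 8 weeks, and the other DMM arrays of those groups lay at 7.68 or below. Ranked by group mean, naive at 4 weeks came first (9.16 ± 0.46, SD, n = 3) and naive at 16 weeks last (6.72 ± 0.05), with the other groups in between, and no neighbours in that order of 9 groups differed by more than the larger of their SDs.

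Sox11, which is linked to regrowth of injured sensory axons, followed Atf3 closely. At 4 weeks it measured 7.64, 8.37 and 7.57 in DMM ganglia, 8.45, 7.79 and 7.87 in sham ganglia, and 8.63, 8.35 and 8.92 in naive ganglia. At 8 weeks it measured 7.29, 8.79 and 7.43 in DMM ganglia, 8.52 on the sham array, and 7.40, 7.32 and 7.78 in naive ganglia. At 16 weeks it measured 7.18, 7.10 and 7.31 in DMM ganglia, 7.24, 7.20 and 7.36 in sham ganglia, and 7.35, 7.15 and 7.26 in naive ganglia. The arrays that were high for Atf3 were high for Sox11, and the 9 arrays at 16 weeks lay within 0.25 of each other. Group means ran from 8.64 ± 0.29 in naive ganglia at 4 weeks to 7.20 ± 0.11 in DMM ganglia at 16 weeks (SD, n = 3 each). Between neighbours in that order, only the step between the sham array at 8 weeks and sham ganglia at 4 weeks was larger than the SD.

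Jun, the AP-1 subunit, moved over a smaller range. At 4 weeks it measured 10.25, 10.34 and 9.29 in DMM ganglia, 10.29, 10.08 and 9.98 in sham ganglia, and 10.28, 9.91 and 10.14 in naive ganglia. At 8 weeks it measured 9.37, 10.40 and 9.79 in DMM ganglia, 10.29 on the sham array, and 9.66, 9.53 and 9.92 in naive ganglia. At 16 weeks it measured 9.40, 9.76 and 9.71 in DMM ganglia, 9.82, 9.43 and 9.50 in sham ganglia, and 9.34, 9.60 and 9.60 in naive ganglia. Of the arrays at 4 weeks replicate 3 of the DMM group (9.29) lay below every array at 16 weeks, and the other 8 lay above all of them. Group means of Jun ran from 10.29 on the lone sham array at 8 weeks, and 10.12 ± 0.16 in sham ganglia at 4 weeks, to 9.51 ± 0.15 in naive ganglia at 16 weeks (SD, n = 3 each), and only the step between those 2 sham groups was larger than the SD of its neighbours.

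Smad1, Stat3 and Klf6 kept within narrow ranges over all 25 arrays. Smad1 ran between 8.26 and 8.57, lowest in DMM ganglia at 16 weeks (8.26, 8.27 and 8.43) and highest in replicate 2 of DMM at 8 weeks. Stat3 ran between 11.85 and 12.22, with its highest array again replicate 2 of DMM at 8 weeks. Klf6 ran between 10.96 and 11.43, with its 2 highest arrays in DMM ganglia at 16 weeks (11.40) and naive ganglia at 4 weeks (11.43). None of the neighbouring group means of Smad1 or Stat3 differed by more than the larger SD, and for Klf6 only naive against DMM ganglia at 4 weeks did (11.34 ± 0.11 and 11.21 ± 0.05, SD, n = 3 each).

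No member passed the threshold of 0.05 on the adjusted p between DMM and sham ganglia, and at 8 weeks that comparison rests on 1 sham array. At 4 weeks 0 of 6 members passed against sham in limma, where 0% of the genes tested passed, and 0 had an unadjusted p under 0.05, beside 4.68% of all genes. At 16 weeks 0 of 6 passed against sham, with a background of 0.00494%, and again 0 had an unadjusted p under 0.05, beside 6.45% of all genes. At 8 weeks, against the lone sham array, 0 of 6 passed with a background of 0%, and 0 had an unadjusted p under 0.05, beside 8.43% of all genes. Atf3 differed by 0.05 ± 0.48 (log2, SE) between DMM and sham ganglia at 4 weeks, with a 95% interval from -0.95 to 1.06, and by -0.12 ± 0.48 at 16 weeks, with an interval from -1.13 to 0.88. At 8 weeks all 6 members had a mean below the lone sham array, with -1.04 ± 0.68 for Atf3 (interval -2.47 to 0.38, adjusted p = 0.745), -0.68 ± 0.41 for Sox11 (0.704) and -0.44 ± 0.34 for Jun (0.795), and the sham value lay within the range of the DMM arrays for each. The Atf3 difference was -0.53 without replicate 1 and -1.68 without replicate 2 of the DMM group. The intervals are wide at 16 weeks too, because 1 spread was estimated over all groups. Within the 16-week groups alone the SD of Atf3 was 0.02 in DMM, 0.16 in sham and 0.05 in naive ganglia, and fitted on the arrays compared alone the difference between DMM and sham ganglia had an adjusted p of 0.901.

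Against naive mice no member passed either. At 4 weeks 0 of 6 members passed in limma against a background of 0.00987%, and 2 had an unadjusted p under 0.05, beside 8.8% of all genes. Atf3 averaged 8.03 ± 1.06 in DMM and 9.16 ± 0.46 in naive ganglia (SD, n = 3 each), a difference of -1.13 ± 0.48 (adjusted p = 0.516), and Sox11 averaged 7.86 ± 0.44 in DMM and 8.64 ± 0.29 in naive ganglia, a difference of -0.77 ± 0.29 (adjusted p = 0.465). The Atf3 difference was -1.72 without replicate 2 and -0.71 without replicate 3 of the DMM group, and neither passed. The groups overlapped for both genes, through replicate 2 of the DMM group. At 8 weeks 0 of 6 passed (background 0.0494%), 0 with an unadjusted p under 0.05 beside 8.49% of all genes, and Atf3 differed by 0.67 ± 0.48 (adjusted p = 0.778). This difference was 0.03 without replicate 2 and 1.18 without replicate 1 of the DMM group at 8 weeks. At 16 weeks 0 of 6 passed (background 0.0148%), 0 with an unadjusted p under 0.05 beside 8.81% of all genes, and Atf3 differed by 0.03 ± 0.48. Averaged over the times, 0 of 6 passed (background 0.0444%), 0 with an unadjusted p under 0.05 beside 7.32% of all genes.

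The change of the difference between DMM and naive ganglia, 8 against 4 weeks, was 1.80 ± 0.68 for Atf3 and 1.11 ± 0.41 for Sox11 in limma, with adjusted p of 0.495 and 0.477. Leaving out 1 array gave 1.15 to 2.39 for Atf3 and 0.64 to 1.39 for Sox11, with the lowest values without replicate 2 of DMM at 8 weeks. No member passed there (background 0%, 2 with an unadjusted p under 0.05 beside 8.78% of all genes). None passed in the change at 16 against 4 weeks against naive (background 0.00494%, 0 members with an unadjusted p under 0.05 beside 10.6% of all genes) or against sham (0%, 0 members beside 5.89%). Sham against naive ganglia gave 0 of 6 at 4 weeks, with a background of 0.331% and 2 members at an unadjusted p under 0.05, beside 15.9% of all genes. There all 3 sham arrays lay below all 3 naive arrays for Atf3 (-1.18 ± 0.48, adjusted p = 0.232), while 16.7% of all genes had sham arrays all below naive arrays. Klf6 differed by -0.24 ± 0.09 between sham and naive ganglia at 4 weeks (adjusted p = 0.187). At 16 weeks sham against naive ganglia also gave 0 of 6 (background 0.00494%, 0 with an unadjusted p under 0.05 beside 10.8% of all genes).

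**Figure D2:**
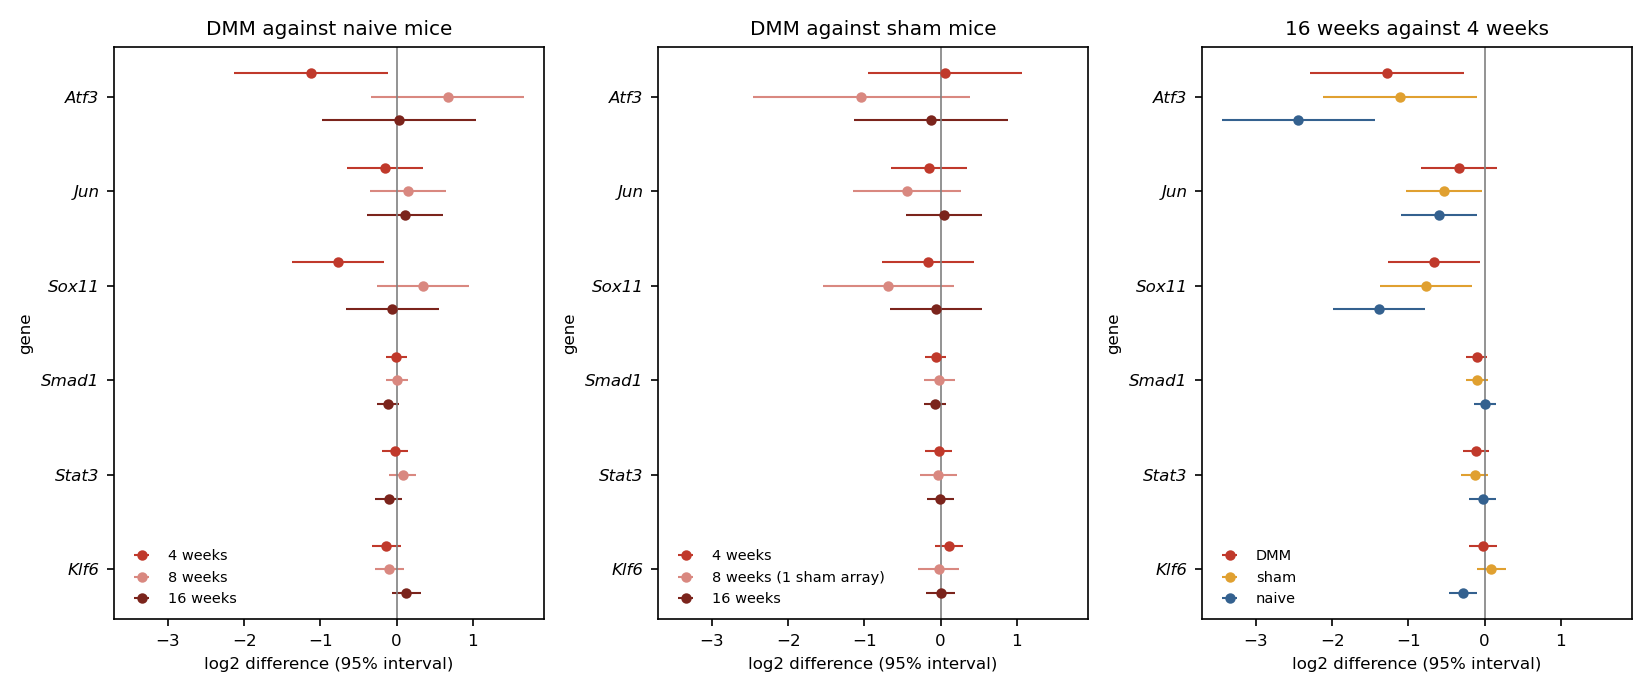
Log2 difference with its 95% interval for each of the 6 members, from the limma fit, for DMM against naive and against sham mice at each time and for 16 against 4 weeks in each treatment. Intervals of Atf3 and Sox11 lie fully below 0 for 16 against 4 weeks in each treatment and for DMM against naive mice at 4 weeks, as do those of Jun for 16 against 4 weeks in naive and sham mice and of Klf6 in naive mice, while those of Smad1 and Stat3 include 0. Intervals are not adjusted over genes.

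The differences that passed were between times. In untreated mice Atf3 fell to 6.72 ± 0.05 at 16 weeks, against 9.16 ± 0.46 at 4 weeks (SD, n = 3 each; adjusted p = 0.00241). Sox11 fell to 7.25 ± 0.10 at 16 weeks, against 8.64 ± 0.29 at 4 weeks (adjusted p = 0.00345). On all 9 arrays at 16 weeks both genes lay under the 90th percentile of 5222 negative control probe sets, which was 7.32 to 7.80 over the arrays. With each naive array at 16 weeks set to that percentile, Atf3 was at least 2.78-fold lower and Sox11 at least 1.93-fold lower than at 4 weeks, and the measured differences were -2.44 ± 0.48 and -1.38 ± 0.29. Klf6 fell to 11.06 ± 0.09 at 16 weeks, against 11.34 ± 0.11 at 4 weeks (-0.28 ± 0.09, adjusted p = 0.0332). Jun averaged 9.51 ± 0.15 at 16 weeks and 10.11 ± 0.19 at 4 weeks and did not pass (-0.60 ± 0.24, adjusted p = 0.0864), although its groups did not overlap, which held in this direction for 26.2% of all genes. The 4-week naive arrays of this comparison are also those of the treatment comparisons at 4 weeks. In all, 3 of 6 members passed, all lower, beside 18.8% of the genes tested, with 12.7% lower and 6.08% higher. The call of Klf6 was lost with cyclic loess normalization (adjusted p = 0.128), with the naive arrays alone (0.0616) and without any of 4 of the 6 arrays (0.0722 to 0.121). In bulk ganglia fewer cells of a type and less RNA per cell cannot be told apart.

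Atf3 and Sox11 also fell in naive ganglia at 8 against 4 weeks. Atf3 averaged 7.19 ± 0.61 at 8 weeks and 9.16 ± 0.46 at 4 weeks (SD, n = 3 each), a difference of -1.97 ± 0.48 (adjusted p = 0.0231). Sox11 averaged 7.50 ± 0.25 at 8 weeks and 8.64 ± 0.29 at 4 weeks (-1.14 ± 0.29, adjusted p = 0.0268). These 2 of 6 members passed in limma, both lower, beside 6.28% of the genes tested, with 4.27% lower. For each gene 2 of the 3 naive arrays at 8 weeks lay under the 90th percentile of the negative controls, so the measured differences may understate the fall. Both calls were lost when naive replicate 1 or 3 at 4 weeks, or naive replicate 1 or 2 at 8 weeks, was left out, with adjusted p of up to 0.0924 for Atf3 and 0.106 for Sox11.

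In operated mice no member passed between these times. At 16 against 4 weeks Atf3 differed by -1.29 ± 0.48 in DMM ganglia (adjusted p = 0.153) and by -1.11 ± 0.48 in sham ganglia (adjusted p = 0.222), with all arrays at 16 weeks below those at 4 weeks in both, as for 13.8% of all genes in DMM and 10.7% in sham ganglia. In DMM ganglia the Atf3 difference was -0.69 and the Sox11 difference -0.41 without replicate 2 at 4 weeks. Sox11 gave -0.66 ± 0.29 in DMM ganglia (adjusted p = 0.223) and -0.77 ± 0.29 in sham ganglia (adjusted p = 0.162), also without overlap. None of the 6 members passed in DMM ganglia (background 2.87%, 2 with an unadjusted p under 0.05 beside 18.4% of all genes) or in sham ganglia (1.76%, 3 with an unadjusted p under 0.05 beside 18.5%). DMM ganglia at 8 against 4 weeks and at 16 against 8 weeks also gave 0 of 6, with backgrounds of 0.0197% and 0% and with 0 and 3 members at an unadjusted p under 0.05, beside 12% and 11.4% of all genes. The test of whether the difference of Atf3 between 16 and 4 weeks differed between DMM and naive ganglia did not pass (1.16 ± 0.68, adjusted p = 0.561), with 0.74 to 1.75 when 1 array was left out.

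All 9 arrays at 16 weeks lay below all 9 arrays at 4 weeks for Atf3 and for Sox11, whatever the treatment, which held for 1.06% of the genes tested in this direction. Averaged over the 3 treatments, a comparison added after these values had been seen, Atf3 was lower at 16 than at 4 weeks (measured difference -1.61 ± 0.28, adjusted p = 0.000407), by at least 1.61-fold against the same floor. Sox11 was at least 1.39-fold lower (measured difference -0.94 ± 0.17, adjusted p = 0.000513) and Jun 1.40-fold lower (-0.49 ± 0.14, adjusted p = 0.0138). Smad1, Stat3 and Klf6 differed by -0.07, -0.09 and -0.07 and did not pass. The 3 members that passed stand beside 24.8% of the genes tested, with 14.8% lower and 10% higher.

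**Figure D3:**
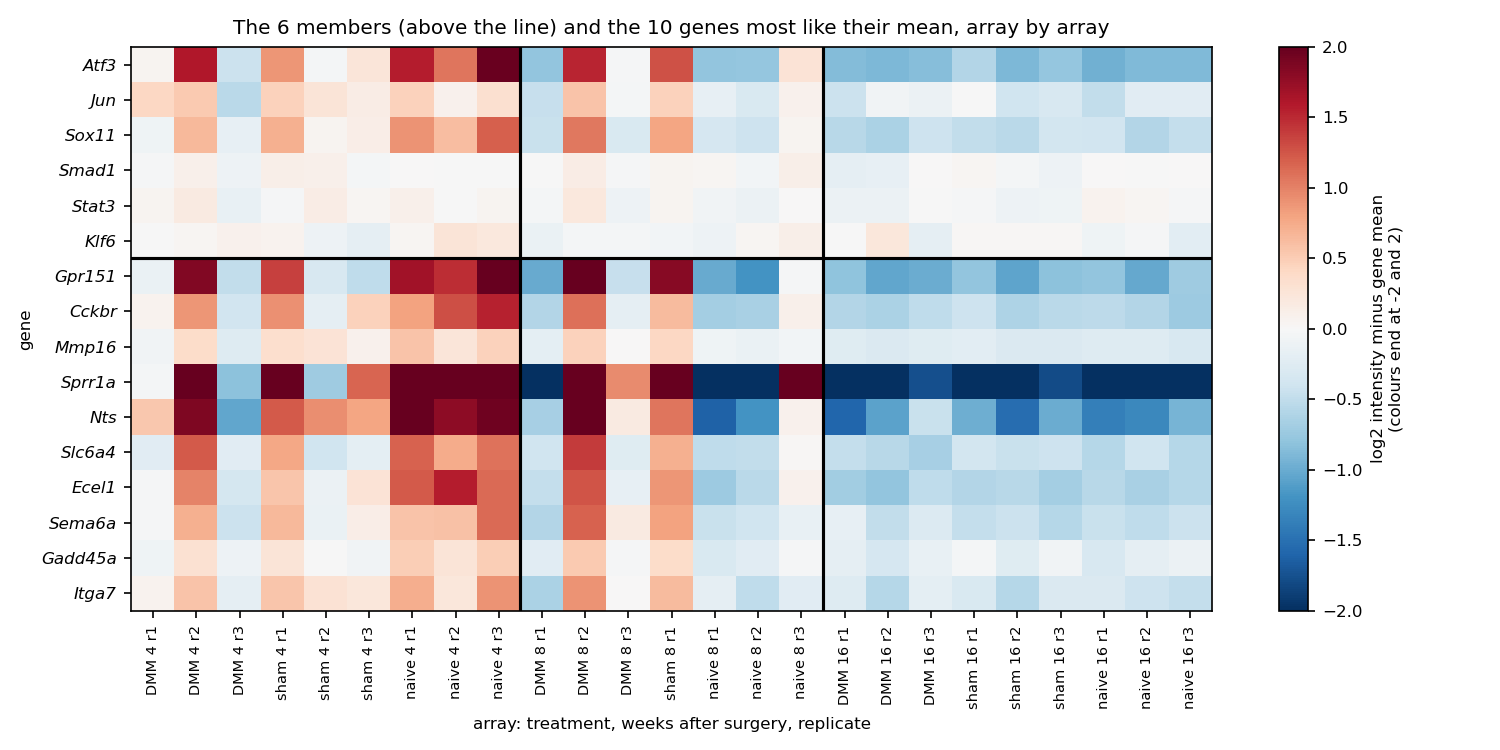
Log2 intensity minus the gene's mean over the 25 arrays, for the 6 members (above the line) and the 10 genes most like their mean (below it), with 1 column per array ordered by weeks after surgery and treatment and colours that end at -2 and 2. The arrays of naive mice at 4 weeks and single DMM and sham arrays at 4 and 8 weeks stand high for Atf3, Sox11 and the genes below the line, and the 9 arrays at 16 weeks stand low.

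The members were correlated over the 25 arrays, in 15 pairs tested by permutation and adjusted over these pairs. Atf3 and Sox11 had a Pearson r of 0.976 and a Spearman rho of 0.915 (permutation p = 1e-05, the smallest 100000 permutations can give; adjusted p = 7.5e-05 for r and 0.00015 for rho), and an r of 0.976 without the 2 arrays farthest from the median of Atf3. Taken as deviations from the group means over the 24 arrays outside the lone sham group, with arrays permuted within groups, their r was 0.934 (adjusted permutation p = 0.00315). Within times it was 0.959 over the 9 arrays at 4 weeks, 0.969 over the 7 at 8 weeks and 0.129 over the 9 at 16 weeks, where Atf3 spanned only 0.37 and Sox11 0.25. The relation therefore rests on the arrays at 4 and 8 weeks. Within 16 weeks it cannot be judged, because both genes lay under the 90th percentile of the negative controls on all 9 arrays.

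Jun followed both genes less closely. Its r was 0.849 with Atf3 (rho 0.805, adjusted permutation p = 7.5e-05 for r and 0.00015 for rho) and 0.849 without the 2 farthest arrays. With Sox11 it was 0.814 (rho 0.753, adjusted permutation p = 7.5e-05 and 0.00025) and 0.769 without them. Permutations over all 25 arrays do not hold time fixed. As deviations from group means, permuted within groups, the r of Jun was 0.810 with Atf3 (adjusted permutation p = 0.0198) and 0.703 with Sox11 (0.034). Within times the r of Jun with Atf3 was 0.592, 0.976 and 0.551 at 4, 8 and 16 weeks. That of Jun with Sox11 was 0.514, 0.961 and -0.283. At 16 weeks neither can be judged, because Atf3 and Sox11 lay under the 90th percentile of the negative controls on all 9 arrays. Smad1 and Stat3 had r 0.737 (rho 0.675, adjusted permutation p = 7.5e-05 and 0.00084), and 0.705 without the 2 farthest arrays. As deviations from group means their r was 0.776 (adjusted permutation p = 0.0118). Within 4, 8 and 16 weeks their r was 0.657, 0.885 and 0.798. They were not a pair apart from the other members. Stat3 had r 0.730 with Jun, 0.652 with Sox11 and 0.648 with Atf3. Smad1 had r 0.625 with Jun, 0.550 with Sox11 and 0.522 with Atf3. These pairs passed by r and by rho as well, but as deviations Stat3 did not pass with Atf3 or Sox11 (adjusted permutation p = 0.0837 for each). Of the 15 pairs 10 passed by r and 10 by rho, and 8 passed as deviations from group means. None of the 5 pairs with Klf6 passed, and their r ran from -0.194 with Smad1 to 0.368 with Atf3.

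**Figure D4:**
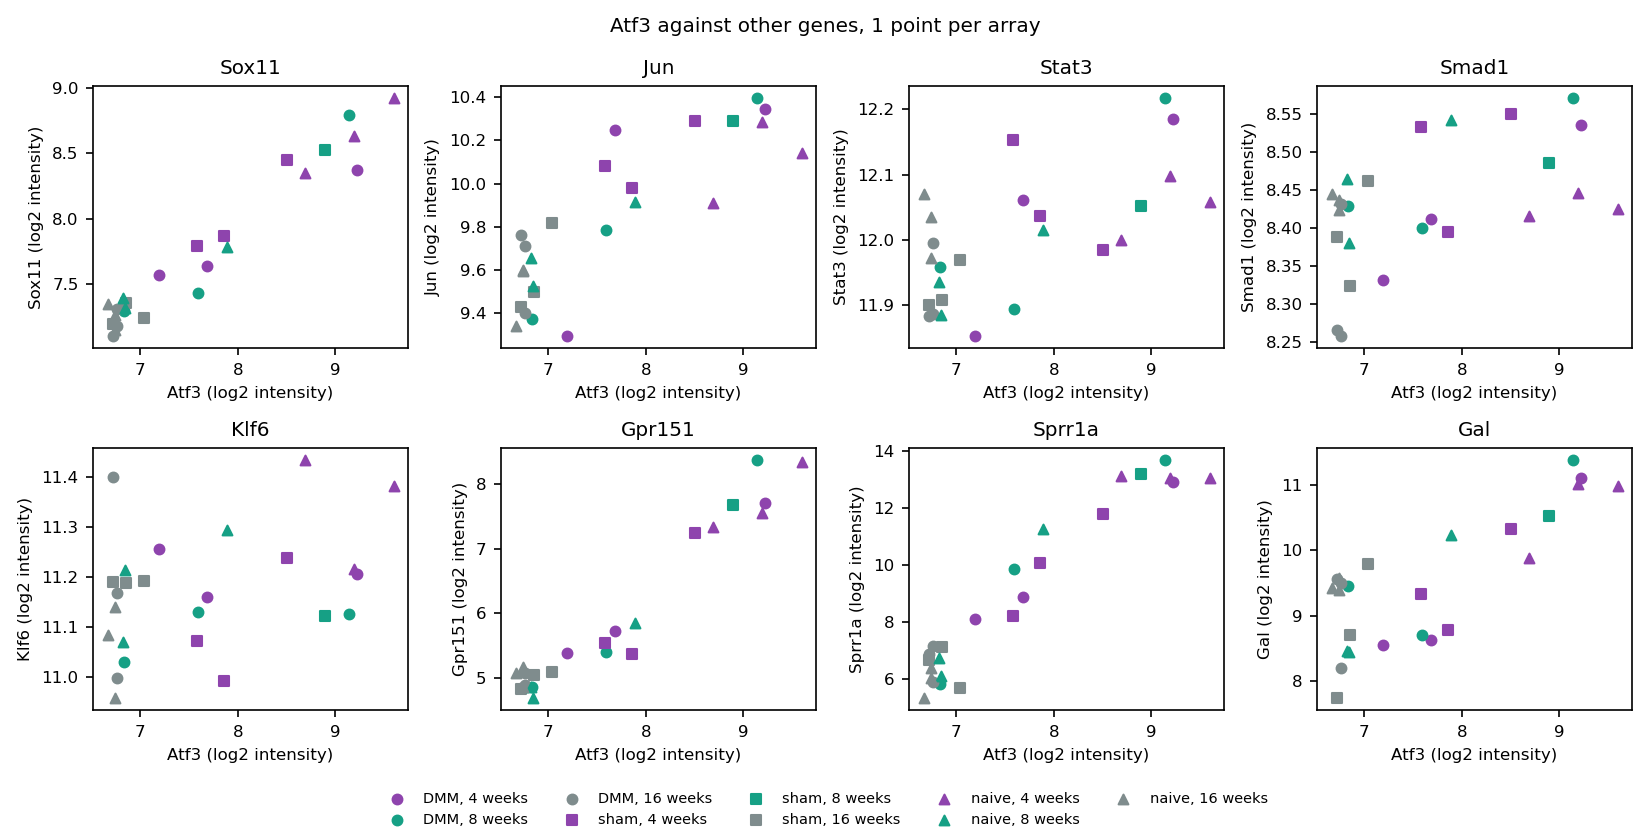
Atf3 on the horizontal axis against each other member and against Gpr151, Sprr1a and Gal, all in log2 intensity, with 1 point per array, shaped by treatment and coloured by weeks after surgery. Sox11 is higher where Atf3 is higher over the arrays at 4 and 8 weeks (r 0.959 and 0.969), and the 9 arrays at 16 weeks lie together at the low end.

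Atf3 and Sox11 shared 4 of their 5 most similar genes over the 25 arrays. With Atf3, the 5 named genes of highest r were Gpr151, an orphan receptor (0.971), Cckbr, a cholecystokinin receptor (0.966), Sprr1a, a cytoskeletal protein of regrowing axons (0.964), Ecel1, an endopeptidase of damaged neurons (0.963), and Slc6a4, the serotonin transporter (0.962). With Sox11 they were Gpr151 (0.974), Cckbr (0.960), Ecel1 (0.954), Slc6a4 (0.952) and Itga7, a laminin receptor subunit (0.951). An r over 0.8 with Atf3 was found for 170 of 20259 genes, with Sox11 for 173 and with Jun for 82, but for 27 with Stat3, 7 with Smad1 and 1 with Klf6. These r are descriptions over arrays that share time and treatment. Gpr151 lay under the 90th percentile of the negative controls on all 9 arrays at 16 weeks and on 6 of the 9 at 4 weeks. Its mean at 16 weeks (4.98) was below the medians of those controls (5.06 to 5.35), so many of its values are background.

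The other members had different neighbours. Jun was most like Nts, the neurotensin precursor (0.882), then Myo10 (0.878), Crtac1 (0.872), Xpr1 (0.866) and Ipo5 (0.863). Stat3 was most like Prep, a prolyl endopeptidase (0.920), then Slc1a4 (0.861), Adam19 (0.851), Ptpro (0.851) and Eif2ak3 (0.846). Smad1 was most like Apba2 (0.841), Cmip (0.838), Slc35e4 (0.833), Nckipsd (0.809) and Efr3b (0.807), and Klf6 was most like Nit2 (0.831), Stab1 (0.797), Anxa1 (0.763), Dek (0.757) and Zfp719 (0.741).

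Genes that injured sensory neurons are known to make (effectors) followed Atf3 over the arrays. Their list was chosen with earlier results of these data known. It holds Gpr151, Cckbr, Sprr1a and Ecel1, which are among the genes most like Atf3 here. The counts and r of the list are therefore a description only. Of 40 effectors 37 were tested. In naive ganglia at 16 against 4 weeks 19 of them fell and 0 rose, beside 12.7% of all genes lower and 6.08% higher. The median difference was -0.70 against -0.07 over all genes. Sprr1a measured 5.32, 6.36 and 6.03 in naive ganglia at 16 weeks, against 13.04, 13.11 and 13.02 at 4 weeks (adjusted p = 0.00413). Npy, neuropeptide Y, measured 5.53, 5.38 and 5.46 at 16 weeks, against 9.47, 9.22 and 8.14 at 4 weeks (adjusted p = 0.00172). Both lay under the 90th percentile of the negative controls at 16 weeks, and against that floor Sprr1a was at least 41.5-fold lower and Npy at least 2.39-fold lower. Gap43, a growth cone protein, fell by 0.74 ± 0.15 (adjusted p = 0.00335). Stmn4, a microtubule regulator, and Csf1, a macrophage growth factor, also passed (adjusted p = 0.000206 and 0.0064), but their means at 4 weeks (7.67 and 7.54) were near the floor and no size is given.

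Gal, the galanin precursor, averaged 9.46 at 16 weeks and 10.63 at 4 weeks and did not pass (-1.16 ± 0.73, adjusted p = 0.277). Against the mean of the 37 effectors, Atf3 had r 0.982, Sox11 0.977, Jun 0.866, Stat3 0.667, Smad1 0.535 and Klf6 0.351. In DMM against naive ganglia 0 of the 37 effectors passed at 4 or 8 weeks. The sign of the difference was negative for 36 at 4 weeks and positive for 34 at 8 weeks. Over all genes the median difference was -0.030 at 4 weeks and -0.0013 at 8 weeks, and the share with each sign was not counted. The sign counts are a description only and no result about the effectors. The 2 comparisons do not share arrays, but within each the effectors share the arrays on which Atf3 was high or low. At 16 weeks 0 passed, with 20 differences above 0 and 17 below.

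Among the partners and upstream routes of the members the shares called were near the 18.8% of all genes called in naive ganglia at 16 against 4 weeks (12.7% lower, 6.08% higher), and the counts are no result about these lists. Of 20 bZIP partners tested, 4 fell in naive ganglia at 16 against 4 weeks and 0 rose, with a median of -0.15. These were Cebpg (-0.35 ± 0.08, adjusted p = 0.00426), Creb1 (-0.25 ± 0.08, 0.0375), Cebpd (0.0244) and Crem (0.0449). Cebpd and Crem lay under the 90th percentile of the negative controls on all arrays of both times, so no size is given. Of 14 genes of the JNK and DLK route to Jun, the kinase Map2k4 rose (0.17 ± 0.06, adjusted p = 0.0430) and the scaffold Mapk8ip1 (-0.32 ± 0.09, 0.0196) and the kinase Mapk8 (-0.17 ± 0.06, 0.0443) fell. Map3k12, which encodes DLK, differed by 0.19 ± 0.07 and did not pass (adjusted p = 0.0620).

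Of 15 genes of the gp130 route to Stat3, 1 rose and 2 fell in naive ganglia at 16 against 4 weeks, again beside 18.8% of all genes called. Cntfr, the receptor subunit for ciliary neurotrophic factor, rose (0.43 ± 0.08, adjusted p = 0.00124), and the kinase Jak2 (-0.34 ± 0.08, 0.00760) and Socs3, a feedback inhibitor that STAT3 induces (0.00872), fell. Stat3 itself differed by -0.03 ± 0.08, and 0 of 4 other STAT genes passed. Of 22 genes of the bone morphogenetic protein route to Smad1, the receptors Bmpr1a (-0.34 ± 0.08, 0.00688) and Acvr2a (-0.31 ± 0.08, 0.0109) and the inhibitory Smad7 (0.0317) fell, and Smad4, the shared partner of SMAD proteins, rose (0.15 ± 0.05, 0.04995). Smad1 itself differed by 0.01 ± 0.07. Of 7 genes of the TGF-beta branch 0 passed. Socs3 and Smad7 lay under the 90th percentile of the negative controls on all arrays of both times, so no size is given. The Socs3 means, 4.62 at 16 weeks and 5.03 at 4 weeks, were below even the medians of those controls (5.06 to 5.35). The fall of Socs3 can therefore not be told apart from a change in background.

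Relatives by family stand beside the same 18.8% of all genes called, and their counts are no result about the families. Of 9 SOX genes Sox4, which belongs to the same subgroup as Sox11, fell in naive ganglia at 16 against 4 weeks (-0.44 ± 0.11, adjusted p = 0.00786), and of 13 KLF genes Klf9 fell (-0.39 ± 0.09, 0.00592). Of 17 other transcription factors linked to injury, Runx1, a regulator of nociceptor identity, rose (0.93 ± 0.16, 0.00101) and Zfp367, under that percentile on all arrays of both times, fell (0.0357).

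Markers of some cell types moved along with the members, and their part in the results was not tested. All counts of markers called stand beside 12.7% of all genes lower and 6.08% higher in naive ganglia at 16 against 4 weeks. Apart from the macrophage count, they are no result about the lists. In naive ganglia at 16 against 4 weeks 12 of 15 macrophage markers fell (median -0.62, beside 12.7% of all genes lower). The mean of the list was 6.68 to 6.83 at 16 weeks against 7.34 to 7.64 at 4 weeks. At 16 weeks it lay under the 90th percentile of the negative controls (7.32 to 7.80 over the arrays), so the size of this fall is uncertain. Over the 25 arrays the macrophage mean had r 0.357 with Atf3, and -0.139 as deviations from group means. Satellite glia markers had r 0.699 with Atf3 and 0.758 with Jun, and 2 of 10 fell and 1 rose in naive ganglia. Sensory neuron markers had r 0.392 with Atf3 and 0.657 with Stat3, with a list mean of 13.68 to 13.70 in naive ganglia at 16 weeks and 13.64 to 13.75 at 4 weeks, and 1 of 16 rose and 1 fell. Fibroblast and meningeal markers were opposed to Smad1 (r -0.795) and Stat3 (r -0.616), and 0 of 12 passed in naive ganglia. The pericyte and smooth muscle mean had r -0.523 with Atf3 and -0.596 with Sox11 (-0.148 and -0.267 as deviations from group means), and was 7.80 to 7.85 in naive ganglia at 16 weeks against 7.56 to 7.64 at 4 weeks, with 1 of 8 markers higher past the threshold. The mean of 2 red blood cell markers had r -0.567 with Jun and -0.493 with Atf3. It was 6.43 to 6.88 in naive ganglia at 16 weeks against 5.497 to 6.32 at 4 weeks, with 0 of 2 past the threshold. Both ranges lay under the same percentile of the negative controls, so no size is read from them. The adipocyte list, with 1 gene tested, had r 0.632 with Klf6. The list of immediate early genes, a class to which Jun and Atf3 belong, was taken without either gene. Its mean had r 0.152 with Jun and -0.011 with Atf3 (0.335 and 0.011 as deviations from group means).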

How the data were processed

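The deposited table holds log2 intensities, 1 per probe set and array. The log2 scale was read from the values (2.23 to 19.70, array medians 4.88 to 4.97), and how the authors normalized and summarised them is not stated in the labels. Per the labels, total RNA was labelled with biotin by a standard Affymetrix protocol. Arrays have no read depth, and their number limits the precision.

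From 72685 probe sets, 65956 were transcripts, of which 30604 had 1 gene symbol in the platform annotation, 2146 had several and 33206 had none. Symbols were updated through the Entrez identifier for 827. For each gene the probe set with the highest mean was taken (30142 genes), and genes with a mean above the 40th percentile of transcript probe sets (4.52) were tested (20260). The 5222 negative control probe sets had array medians of 5.06 to 5.35, above that level. The table has no detection call. Where every array of a group lay under the 90th percentile of these controls (7.32 to 7.80), a floor chosen after seeing the data, folds are lower bounds, and no size is given where both groups did or the bound was under 1.

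Groups were those of treatment and time in the labels. A limma 3.58.1 model (R 4.3.3) took all 25 arrays with 1 mean per group (16 residual degrees of freedom), with two-sided eBayes tests adjusted by Benjamini-Hochberg over all 20260 genes with a threshold of 0.05, in 18 comparisons and 1 added after values were seen. For sham mice at 8 weeks, with 1 array, the spread is that of the other groups. Equal replicate numbers were checked as a pairing. Over 21 pairs the correlation of deviations ran from -0.359 to 0.318 and was over 0.1 in 8, most of them at 16 weeks. Arrays were treated as unpaired, with a replicate block as an alternative. Whether arrays of equal number at 16 weeks share a source was not tested. On simulated data for naive ganglia at 16 against 4 weeks over 20260 genes the fit recovered 63 of 100 genes shifted by 0.5. It recovered 92 of 100 shifted by 1, with 10 unshifted genes called in each. These shares cannot be carried over to Atf3, Sox11 and Jun, whose residual SDs (0.646, 0.385 and 0.317) were far above the median of 0.121. For Atf3 a measured difference of -1.29 ± 0.48 in DMM ganglia at 16 against 4 weeks did not pass in limma (adjusted p = 0.153).

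Correlations between members were tested with 100000 two-sided permutations (Python 3.11.15, scipy 1.17.1). Promoters are those of a RefSeq table for GRCm38.p6, and the members' protein sequences were not used here. The members and the gene lists were chosen with earlier results of these data known, and support nothing by their choice. Named are the members in every comparison, list genes past the threshold (or examples of them in the longest list) and those of smallest p, and the 5 genes most like each member by Pearson r among 14634 genes with names that are neither predicted nor clone names. Gal was named although it is outside that rule, after its values were seen. The alternatives were cyclic loess and quantile normalization, no filter or a filter at the 60th percentile, an intensity trend with a robust prior, array weights, a replicate block, the mean of all probe sets of a gene, only the arrays compared, and leaving out each array.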

Additional observations from a re-analysis of the deposited data

How the results depend on the processing

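Over 1944 results of single members under an alternative, 1925 kept their direction and side of the threshold or passed in neither fit, 14 lost a call, 5 gained one and 0 reversed, and in 121 the sign changed where neither fit passed. The fall of Atf3 and Sox11 in naive ganglia at 16 against 4 weeks, and in the average over treatments, passed under every alternative run. The replicate block changed no call, and 3 members passed in naive ganglia at 16 against 4 weeks and 2 at 8 against 4 weeks with it.

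Members past the threshold in naive ganglia at 8 against 4 weeks were 0 to 2 when 1 array was left out. In the average of 16 against 4 weeks, 5 passed after quantile normalization, which added Smad1 (-0.14, adjusted p = 0.0141) and Stat3 (-0.13, adjusted p = 0.0320). Jun in naive ganglia at 16 against 4 weeks passed after quantile normalization, with array weights and with only the naive arrays compared, with an adjusted p of 0.0179 to 0.235 over 15 alternatives. The correlation of Atf3 with Stat3 was 0.545 after cyclic loess and 0.688 as deviations from group means (adjusted p = 0.0837), that of Sox11 with Stat3 was 0.666 as deviations (adjusted p = 0.0837), and without the 2 farthest arrays that of Atf3 with Klf6 was 0.245 and that of Smad1 with Klf6 -0.0343. The causes were not tested.

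Over all genes the calls moved more than the members. In naive ganglia at 16 against 4 weeks 3811 genes passed, and 2164 without naive replicate 1 at 16 weeks and 2282 without naive replicate 3 at 4 weeks. At 8 against 4 weeks 1272 passed, against 3053 after quantile normalization, 2189 with array weights, 238 with only the arrays compared and 307 to 906 without 1 array. In DMM ganglia at 16 against 4 weeks 582 passed, against 1233 after quantile normalization, 902 with array weights, 365 with no filter, 4 with only the arrays compared and 9 to 771 without 1 array, and in sham ganglia 357 passed, against 0 to 916 over the alternatives. After quantile normalization the median of all genes was -0.121 at 8 and -0.116 at 16 against 4 weeks in naive ganglia. DMM against sham ganglia at 8 weeks, fitted on its 4 arrays alone in an alternative chosen after seeing the data, gave 0 members past the threshold (Atf3 adjusted p = 0.953), and the lone sham array was not left out.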
